A study of Mus musculus with 12 samples.

Results

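The genes described here encode 49 proteins of DNA damage signalling and repair. They were taken by name from a list that held 9 damage signalling genes, 9 genes of homologous recombination, 8 of end joining, 6 of the Fanconi group, 8 of base excision and single-strand break repair, 5 of nucleotide excision repair, and 4 of mismatch repair, nucleases and helicases. All 49 were present among the 31272 gene names of the deposited tables. The RNA came from bone marrow cells of wild-type (WT) mice that were sorted and labelled as hematopoietic stem cells (HSCs), in 4 groups of 3 libraries. Ctrl libraries came from mice without irradiation and IR libraries from mice 3 days after ionizing radiation. The exposure was a single sublethal dose of gamma rays to the whole body. Ab_IR and L_IR were 2 further irradiated WT groups, also sampled on day 3. The labels do not spell out Ab or L, so both names are used as given. The sort gate in the study was Lineage-, Sca-1+, c-Kit+, Flt3- and CD34-. Neither the ages of the mice nor whether animals were pooled for a library is given in the sources used here, and the replicates carry numbers only, so the p-values measure the spread between libraries, which may be technical.

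A break in both strands of DNA is sensed by the MRE11-RAD50-NBN complex, which brings in the kinase ATM. Single-stranded DNA at a stalled fork is sensed through the kinase ATR, which acts by way of CHEK1. The break is then closed either by end joining, in which the Ku heterodimer holds the ends for DNA-PKcs and a ligase in any phase of the cycle, or by homologous recombination, which copies the sister chromatid and therefore runs in the S and G2 phases. The Fanconi proteins unhook crosslinks between the strands, base excision repair replaces single oxidized or deaminated bases, nucleotide excision repair cuts out bulky lesions, and mismatch repair corrects replication errors. Quiescent HSCs are known to rely mainly on end joining, and Fanconi anemia, in which a Fanconi protein is missing, leads to their loss.

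Values were FPKM, mapped fragments scaled by transcript length and by the size of the library, so levels can be compared between genes. As FPKM hold no counts, depth is unknown here and intervals for counting error are not given. One control library, Ctrl replicate 1, stood apart. In it 44.1% of gene rows were at 0, while the other 11 libraries had 24.7% to 27.3%, and it held the highest value of its group for 29 of the 49 genes. The median SD of a repair gene within its group, on the scale of log2(FPKM + 1), was 0.130 in Ctrl, and 0.0468, 0.0682 and 0.0537 in IR, Ab_IR and L_IR. As for the labelled cell type, Kit, a sort marker, was listed at 25.45, 21.28 and 23.7 FPKM in Ctrl, 6.92, 7 and 6.7 in IR, 17.95, 19.07 and 17.43 in Ab_IR and 18, 17.81 and 17.88 in L_IR, and was lower in IR than in any other group (-1.63 on the log2 scale against Ctrl, adjusted p 3.83e-05). Ly6a, which encodes Sca-1, stood at 25.92 to 41.13 FPKM in Ctrl and 53.66 to 61.47 in IR. Of 12 HSC genes 5 reached 1 FPKM in both groups compared, and of these 1 rose and 3 fell in IR, while 3 rose and 2 fell against IR in both Ab_IR and L_IR. Over all such genes, 17.4% rose and 23.4% fell in IR. Against IR, 37.7% rose and 29.3% fell in Ab_IR, and 38.9% rose and 26.1% fell in L_IR. What part the shift of the HSC genes had in the repair genes was not tested. In addition, 4 of the 12 (Mecom, Slamf1, Fgd5 and Hoxb5) stayed under 1 FPKM in all 12 libraries. Heart transcripts, summed over 12 genes, were listed at 127 to 162 FPKM in the IR libraries and in Ctrl replicates 2 and 3, at 1.71 FPKM in Ctrl replicate 1, and at 1.19 to 1.61 FPKM in Ab_IR and L_IR, so a batch and the difference of IR from Ab_IR or L_IR cannot be told apart.

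Repair genes were expressed in all 4 groups, at levels that spanned from under 1 to over 60 FPKM. The highest 12-library mean was 55.0 FPKM, for Parp1, which encodes the poly(ADP-ribose) polymerase that marks strand breaks, and the lowest was 0.694 FPKM, for Lig4, the ligase of end joining. The median of the 49 means was 6.53 FPKM, against 7.63 FPKM for all genes tested between IR and Ctrl. In the Ctrl libraries the order began with Parp1 at 51.2 ± 4.11 FPKM (SD, n = 3), followed by the abasic site endonuclease Apex1 at 48.5 ± 5.87 FPKM. These neighbours did not differ beyond their spread. Msh6, which recognizes mismatched bases, came next at 29.5 ± 2.01 FPKM and then the Ku subunit gene Xrcc6 at 20.6 ± 1.17 FPKM. At the other end stood Dclre1c, Rad51c, Fancc and Lig4, at 1.73 ± 0.0693, 1.53 ± 0.0700, 1.19 ± 0.1002 and 0.497 ± 0.150 FPKM.

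**Figure D1:**
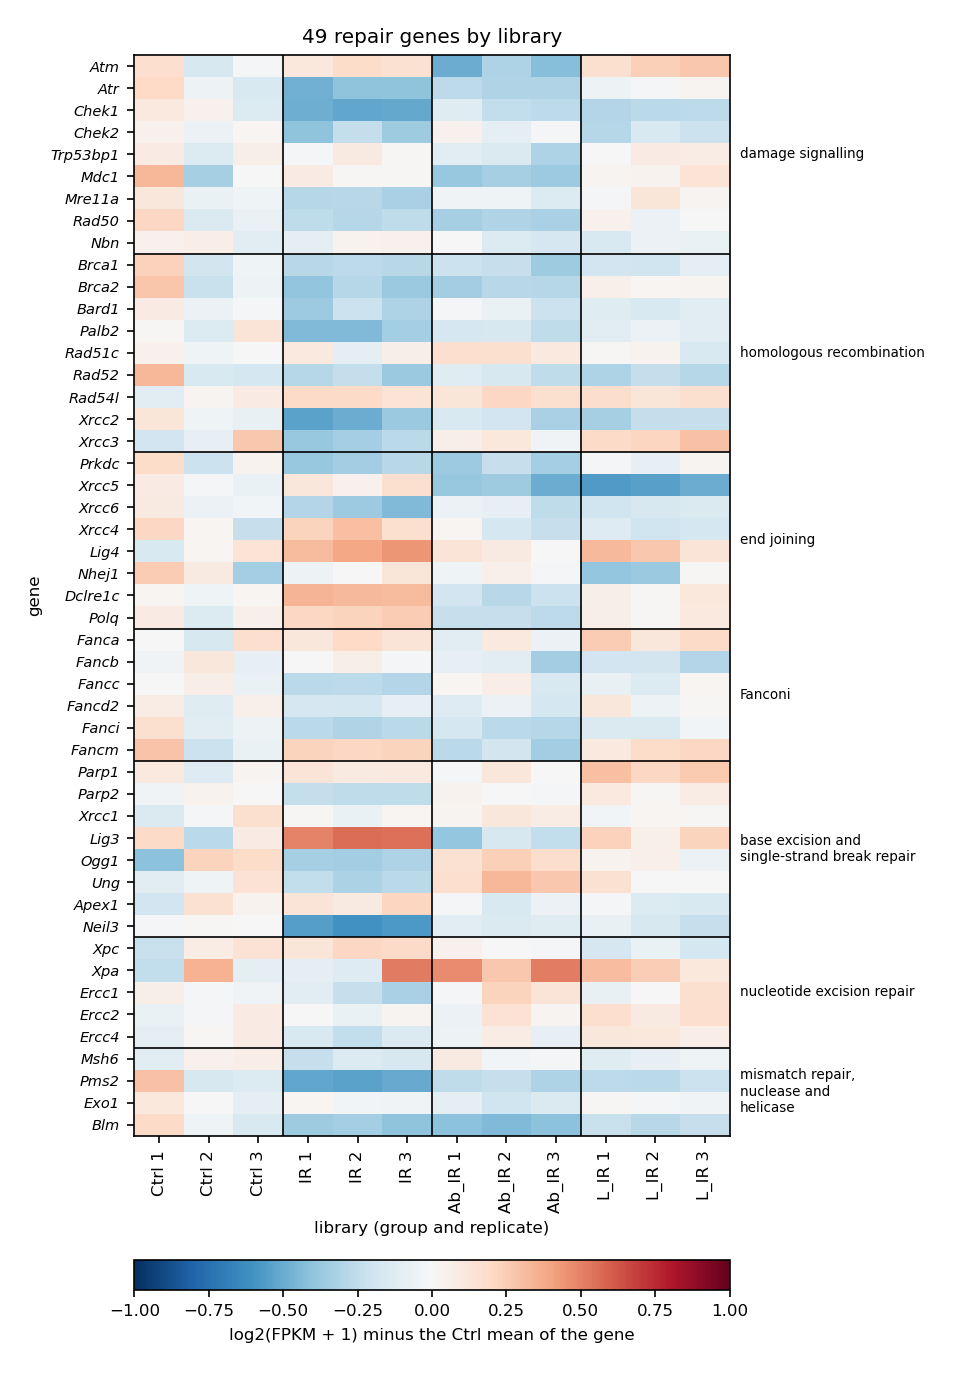
Each row is 1 of the 49 repair genes, grouped by pathway, and each column is 1 of the 12 libraries. Colour gives log2(FPKM + 1) minus the mean of the gene over the 3 Ctrl libraries, red for higher and blue for lower. The IR columns hold most of the dark blue cells, at Neil3, Chek1, Xrcc2 and Pms2, and the darkest red row, at Lig3, whereas Xrcc5 is lowest in the L_IR columns.

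To see how irradiation was followed by changes in repair transcripts, IR was compared with Ctrl. At 3 days after exposure, 17 of 48 repair genes tested differed at an adjusted p under 0.05. Lig3 and Dclre1c rose, and 15 genes fell, among them Neil3, Pms2, Chek1, Xrcc2 and Atr. The changes were small, with log2 fold changes between -0.58 and 0.53, and 0 of the 49 genes passed the 2-fold threshold that the study used, which 7.6% of all genes tested passed. The share of repair genes called, 35.4%, stood beside 43.1% of all 12072 genes tested, and by direction the counts stood beside 17.5% higher and 25.5% lower over all genes. Groups did not overlap for 58.3% of the repair genes, beside 58.1% of all genes. The median log2 fold change was -0.18 for the repair genes and -0.05 for all genes tested. Fancc, 1 of the 15, passed the filter on low values through Ctrl alone, so its direction was fixed by the filter. Over the 47 genes that reached 1 FPKM in libraries of both groups, 2 rose and 14 fell, or 34%, beside 40.8% of 11527 such genes overall. Lig4 was too low to be tested.

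The direction of this comparison was partly a matter of scale. With quantile normalization 5 genes were higher and 8 lower, and with FPKM rescaled without immunoglobulin genes 3 were higher and 4 lower. Both genes that rose, and Chek1, Xrcc2 and Neil3 among those that fell, were called under FPKM as deposited and all 3 other scalings, and no gene was called in the opposite direction. Without Ctrl replicate 1, which leaves the libraries that carry heart transcripts, 6 were higher and 19 lower. Leaving out IR replicate 1, 2 or 3 lowered the count to 5, 6 and 5.

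The IR group was then set against both other irradiated groups. In Ab_IR, 16 of 47 genes tested were higher than in IR and 13 lower, and in L_IR 25 were higher and 8 lower. These counts make up 61.7% and 70.2% of the repair genes tested, beside 68.7% and 66.8% of all genes. All genes tested were split 39.4% higher and 29.4% lower in Ab_IR, and 40.8% higher and 26% lower in L_IR. Log2 fold changes ran from -0.80 to 0.53 for Ab_IR and from -0.64 to 0.56 for L_IR, and again 0 genes passed the 2-fold threshold, beside 7.57% and 6.22% of all genes. Groups did not overlap for 72.3% of the repair genes in either comparison, beside 73% and 71.2% of all genes. Both comparisons share the IR libraries. With quantile normalization the splits became 10 higher and 16 lower for Ab_IR and 14 higher and 13 lower for L_IR, and without immunoglobulin genes 7 higher and 19 lower for Ab_IR. Of the genes higher than in IR, 6 of 16 in Ab_IR and 13 of 25 in L_IR kept that call under all 4 scalings, as did all 13 and all 8 of those that were lower. Among calls described here, those of Fancc (3), Ung (5) and Fanci (7) in IR against Ctrl, Ercc4 (4) and Exo1 (7) in Ab_IR against IR, and Brca1 (6) and Ercc1 (7) in L_IR against IR were made under the number given of 17 other settings.

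Between Ab_IR and L_IR, 19 of 48 repair genes differed, 4 higher and 15 lower in Ab_IR than in L_IR. This is 39.6%, beside 38% of all genes, of which 18.2% were higher and 19.8% lower, and groups did not overlap for 60.4% of the repair genes, beside 51.9%. The 2-fold threshold was passed by 0 of them and by 0.533% of all genes. Without immunoglobulin genes, 0 were higher and 24 lower. Under all 4 scalings, 14 of the 15 lower calls and 0 of the 4 higher calls held. Against Ctrl, limma called 0 of 48 repair genes for Ab_IR, with 12 at an unadjusted p under 0.05, beside 2.1% of all genes called, 1.45% higher and 0.651% lower. Without Ctrl replicate 1, Xrcc5 and Blm passed. For L_IR against Ctrl, 1 gene passed, Xrcc5, which was lower, beside 8.84% of all genes, 4.76% higher and 4.08% lower. This count was 5 without Ctrl replicate 1 and 2 without Ctrl replicate 3. Groups did not overlap for 39.6% of repair genes between Ab_IR and Ctrl and 29.2% between L_IR and Ctrl, beside 33.5% and 36.1% of all genes, and 0 repair genes passed the 2-fold threshold, beside 0.923% and 2.65%. The wider spread of the Ctrl libraries enters all comparisons with Ctrl, and when all 12 libraries shared 1 estimate of the spread 11 repair genes were called for Ab_IR and 7 for L_IR.

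**Figure D2:**
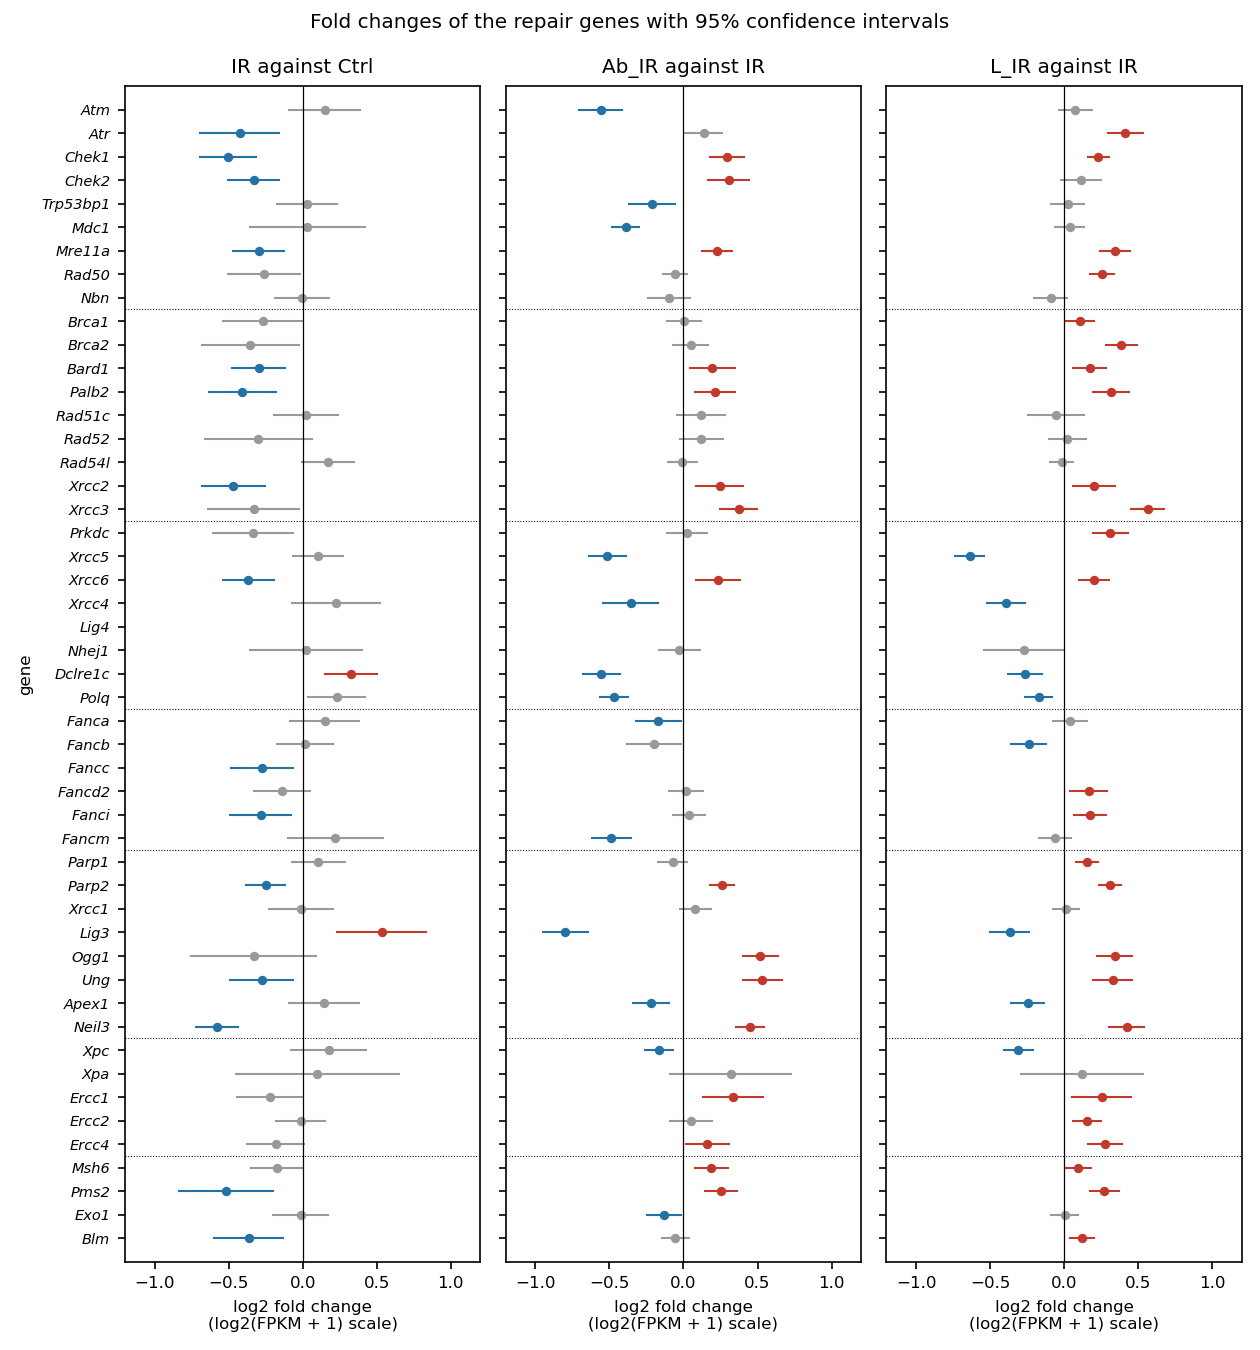
Points are log2 fold changes of the repair genes on the scale of log2(FPKM + 1) in 3 comparisons, with lines for 95% confidence intervals. Red marks genes higher and blue genes lower at an adjusted p under 0.05, grey the others, and dotted lines part the pathways in the order damage signalling, homologous recombination, end joining, Fanconi, base excision, nucleotide excision, and mismatch repair with nucleases and helicases. Neil3 is lower in IR than in Ctrl and higher in both Ab_IR and L_IR than in IR, while Lig3 shows the opposite signs.

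The promoters of several of these genes are given because they show what the genes that changed after irradiation carry in front of their start sites. RefSeq promoters (GRCm38.p6, 250 bases before to 50 bases after the start) were at hand for 42 of the 49 genes. They were searched on both strands for the E2F core, spelled TTCCCGC or TTTGGCGC, and for the CCAAT box, spelled CCAAT. E2F factors switch on genes for entry into S phase. Of the 42 promoters, 14 (33.3%) held an E2F core, against 5.14% of 27025 promoters of all genes and 8.13% of 13252 promoters of protein-coding genes. A CCAAT box was found in 24 (57.1%) of the 42, against 37.9% and 38.1%. Presence of the core did not follow the calls. It stood in 5 of 14 promoters of genes lower in IR than in Ctrl, in 0 of 2 of those higher and in 9 of 26 of those not called. The 14 include Fancc, which holds no core and whose direction was fixed by the filter. Shown are 4 genes that fell and hold the core, then both genes that rose, with matches to either motif in capitals.
Chek1 (chr9:36726609-36726908, minus strand): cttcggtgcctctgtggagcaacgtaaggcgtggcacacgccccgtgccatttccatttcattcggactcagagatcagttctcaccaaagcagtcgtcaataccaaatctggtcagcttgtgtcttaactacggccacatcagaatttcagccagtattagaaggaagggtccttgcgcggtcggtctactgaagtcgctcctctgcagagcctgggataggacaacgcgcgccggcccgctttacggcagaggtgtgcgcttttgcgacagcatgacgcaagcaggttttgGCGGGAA
Chek2 (chr5:110839733-110840032, plus strand): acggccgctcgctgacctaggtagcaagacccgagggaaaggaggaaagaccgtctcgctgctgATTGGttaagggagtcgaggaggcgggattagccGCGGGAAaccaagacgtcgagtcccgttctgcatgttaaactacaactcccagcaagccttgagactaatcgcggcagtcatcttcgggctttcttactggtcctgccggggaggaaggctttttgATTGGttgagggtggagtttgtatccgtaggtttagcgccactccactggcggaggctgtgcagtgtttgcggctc
Bard1 (chr1:71102923-71103222, minus strand): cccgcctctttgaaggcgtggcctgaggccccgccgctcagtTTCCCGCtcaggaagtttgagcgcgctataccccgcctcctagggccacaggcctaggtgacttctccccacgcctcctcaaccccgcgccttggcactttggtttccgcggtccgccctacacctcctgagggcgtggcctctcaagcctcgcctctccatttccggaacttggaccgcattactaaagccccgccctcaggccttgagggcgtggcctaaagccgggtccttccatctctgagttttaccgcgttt
Xrcc6 (chr15:82016119-82016418, plus strand): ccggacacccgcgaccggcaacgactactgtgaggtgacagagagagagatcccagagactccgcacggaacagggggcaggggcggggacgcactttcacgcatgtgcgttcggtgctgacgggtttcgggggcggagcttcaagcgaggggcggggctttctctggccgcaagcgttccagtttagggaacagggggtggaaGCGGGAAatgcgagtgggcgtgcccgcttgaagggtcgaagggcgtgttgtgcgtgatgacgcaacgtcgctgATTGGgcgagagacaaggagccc
Lig3 (chr11:82780859-82781158, plus strand): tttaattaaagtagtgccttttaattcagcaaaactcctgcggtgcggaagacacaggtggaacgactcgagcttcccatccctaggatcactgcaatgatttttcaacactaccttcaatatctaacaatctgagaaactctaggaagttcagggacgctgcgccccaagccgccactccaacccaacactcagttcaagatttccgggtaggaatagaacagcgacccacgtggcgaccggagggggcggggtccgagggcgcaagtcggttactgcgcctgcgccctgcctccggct
Dclre1c (chr2:3423881-3424180, plus strand): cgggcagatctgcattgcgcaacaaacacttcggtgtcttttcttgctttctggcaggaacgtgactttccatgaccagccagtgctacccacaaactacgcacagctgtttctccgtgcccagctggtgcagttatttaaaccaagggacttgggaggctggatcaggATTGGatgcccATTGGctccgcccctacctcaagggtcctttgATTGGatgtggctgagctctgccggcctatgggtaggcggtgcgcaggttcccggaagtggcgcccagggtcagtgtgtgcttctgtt
In Chek1 the core (GCGGGAA, the other strand of TTCCCGC) begins at position 44 counted from the start site, in Xrcc6 at -46, in Chek2 at -152 and in Bard1 at -208. Lig3 holds neither motif and Dclre1c holds 3 CCAAT boxes.

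Among damage signalling genes, 4 of 9 fell in IR and 0 rose, beside 25.5% lower and 17.5% higher over all genes, shares that also stand beside the IR counts of the pathways and lists that follow. Counts against IR are to be read beside 39.4% higher and 29.4% lower for Ab_IR and 40.8% and 26% for L_IR. Differences given beside an adjusted p are log2 fold changes of log2(FPKM + 1), on which low genes appear to change less than their FPKM do. Chek1, the checkpoint kinase below ATR, was listed at 12.48, 11.98 and 10.45 FPKM in Ctrl, 8, 7.81 and 7.83 in IR, 10.58, 9.61 and 9.54 in Ab_IR and 9.31, 9.46 and 9.49 in L_IR. Every IR library lay below all 9 others. The log2 fold change was -0.51 in IR against Ctrl (SE 0.0787, adjusted p 0.00319), 0.30 in Ab_IR against IR (adjusted p 0.00118) and 0.23 in L_IR against IR (adjusted p 0.000483). Atr, the kinase itself, was listed at 3.44, 2.73 and 2.48 FPKM in Ctrl and 1.77, 1.93 and 1.93 in IR, and at 2.22, 2.13 and 2.13 in Ab_IR and 2.73, 2.82 and 2.93 in L_IR. Its log2 fold change was -0.43 in IR against Ctrl (adjusted p 0.0214) and 0.41 in L_IR against IR (adjusted p 0.000317), while Ab_IR against IR gave 0.14 (adjusted p 0.0517), which did not pass. With the trend of fold change against gene length taken out, Atr was called higher in Ab_IR than in IR. The call in IR against Ctrl was lost with quantile normalization, at -0.23, and without immunoglobulin genes, at -0.37.

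Atm, the kinase that answers double-strand breaks, did not follow Atr. Its values were 4.34, 3.25 and 3.71 FPKM in Ctrl, 4.11, 4.39 and 4.28 in IR, 2.36, 2.83 and 2.53 in Ab_IR and 4.31, 4.59 and 4.73 in L_IR. The Ab_IR libraries were the lowest 3 of the 12. IR differed from Ctrl by 0.15 (95% interval -0.09 to 0.39, adjusted p 0.272), whereas Ab_IR fell below IR (-0.56, adjusted p 0.000148) and lay below L_IR (-0.63, adjusted p 0.000485). Mdc1 and Trp53bp1, which encode scaffolds that ATM signals build on, were also lower in Ab_IR than in IR, at -0.39 (adjusted p 9.7e-05) and -0.21 (adjusted p 0.0229). The Trp53bp1 call was made under 11 of 17 other settings, and with the trend of fold change against gene length taken out its value turned to 0.04 (adjusted p 0.659). In the sensor complex, Mre11a, the nuclease, was listed at 12.39, 10.79 and 11 FPKM in Ctrl, 9.14, 9.19 and 8.89 in IR, 11.07, 11.03 and 10.27 in Ab_IR and 11.25, 12.47 and 11.64 in L_IR. It fell in IR (-0.30, adjusted p 0.0167) and was higher than IR in L_IR (0.34, adjusted p 0.000359) and in Ab_IR (0.23, adjusted p 0.00251). Rad50, its ATPase partner, passed only in L_IR against IR among the comparisons with IR (0.25, adjusted p 0.000547), and Nbn passed in 0 of the 6 comparisons. Chek2, the checkpoint kinase below ATM, fell in IR (-0.33, adjusted p 0.0112) and was higher in Ab_IR than in IR (0.30, adjusted p 0.00275).

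In homologous recombination, 3 of 9 genes fell in IR (Bard1, Palb2 and Xrcc2) and 0 rose, beside 25.5% and 17.5% of all genes, and groups did not overlap for 8 of the 9, beside 58.1% of all genes. Xrcc2, a recombination gene, was listed at 4.78, 4.16 and 4.05 FPKM in Ctrl, 2.67, 2.78 and 3.11 in IR, 3.78, 3.65 and 3.26 in Ab_IR and 3.23, 3.52 and 3.54 in L_IR. IR held the 3 lowest values. The log2 fold change was -0.47 in IR against Ctrl (adjusted p 0.00675), 0.24 in Ab_IR against IR (adjusted p 0.0144) and 0.20 in L_IR against IR (adjusted p 0.0202). Xrcc3, another gene of this pathway, was listed at 5.58, 6.1 and 8.07 FPKM in Ctrl, 4.78, 4.94 and 5.22 in IR, 6.82, 7.07 and 6.34 in Ab_IR and 7.56, 7.72 and 8.21 in L_IR. It was the largest rise of L_IR over IR (0.56, adjusted p 4.84e-05) and was also higher in Ab_IR than in IR (0.37, adjusted p 0.000601). Ctrl values spread from 5.58 to 8.07 FPKM, and IR against Ctrl did not pass (-0.33, adjusted p 0.08).

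The breast cancer genes Brca1 and Brca2, whose products act on the resected break, lay below every Ctrl library in all IR libraries without passing the test. Brca1 was listed at 11.43, 8.32 and 9.27 FPKM in Ctrl, 7.76, 7.86 and 7.73 in IR, 8.14, 8.02 and 7.28 in Ab_IR and 8.26, 8.21 and 8.93 in L_IR. Brca2 was listed at 6.97, 4.61 and 5.32 FPKM in Ctrl, 3.98, 4.38 and 4.07 in IR, 4.17, 4.41 and 4.38 in Ab_IR and 5.79, 5.66 and 5.7 in L_IR. In each gene Ctrl replicate 1 held the highest value. IR against Ctrl gave -0.27 for Brca1 (95% interval -0.54 to -0.00, adjusted p 0.095) and -0.35 for Brca2 (-0.68 to -0.03, adjusted p 0.0778). L_IR was higher than IR for Brca2 (0.39, adjusted p 0.000216) and just passed for Brca1 (0.11, adjusted p 0.0485), a call made under 6 of 17 other settings and lost with each other scaling (0.03, adjusted p 0.61, with quantile normalization), whereas Ab_IR against IR gave 0.05 and 0.00, which did not pass. Brca2 was lower in Ab_IR than in L_IR (-0.34, adjusted p 0.00116), a call lost with the trend of fold change against gene length taken out. The partners Bard1 and Palb2 fell in IR and were higher than IR in both other irradiated groups, Palb2 by 0.21 in Ab_IR and 0.31 in L_IR. Rad51c, Rad52 and Rad54l passed in 0 of the 6 comparisons, and Rad54l kept to 8.08 to 10.31 FPKM.

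End joining genes split. In IR, 1 of 7 tested rose and 1 fell, and against IR 1 rose and 4 fell in Ab_IR (all genes 39.4% and 29.4%) and 2 rose and 4 fell in L_IR (40.8% and 26%). The split ran through the Ku heterodimer itself. Xrcc6, which encodes Ku70, was listed at 21.94, 19.7 and 20.25 FPKM in Ctrl, 16.6, 15.79 and 14.94 in IR, 19.7, 19.42 and 17.14 in Ab_IR and 17.8, 18.33 and 18.6 in L_IR. Xrcc5, which encodes its partner Ku80, was listed at 14.01, 12.96 and 12.5 FPKM in Ctrl, 14.26, 13.57 and 14.77 in IR, 9.87, 10.03 and 9.02 in Ab_IR and 8.55, 8.69 and 9.04 in L_IR. Xrcc6 was thus lowest in IR, whereas Xrcc5 was lower in all 6 Ab_IR and L_IR libraries than in any other. Xrcc6 fell in IR (-0.37, adjusted p 0.00728) and exceeded its IR level in Ab_IR (0.23, adjusted p 0.0128) and L_IR (0.20, adjusted p 0.00486). For Xrcc5, IR against Ctrl gave 0.10 (adjusted p 0.271), with lower levels than IR in both other irradiated groups, -0.52 for Ab_IR against IR (adjusted p 0.000103) and -0.64 for L_IR against IR (adjusted p 1.32e-05). L_IR held 0.617 times the IR mean. It was the only gene of the 49 called against Ctrl in L_IR (-0.54, adjusted p 0.00536), a call made under all 17 other settings tried, and Ab_IR against Ctrl gave -0.41 (adjusted p 0.0568). The Ku70 and Ku80 transcripts stood at 20.6 and 13.2 FPKM in Ctrl, at 15.8 and 14.2 FPKM in IR, and at 18.2 and 8.76 FPKM in L_IR.

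Dclre1c, which encodes the nuclease Artemis that opens hairpin ends, was 1 of the 2 genes that rose in IR. Its values were 1.77, 1.65 and 1.77 FPKM in Ctrl, 2.46, 2.41 and 2.39 in IR, 1.39, 1.25 and 1.35 in Ab_IR and 1.84, 1.75 and 1.94 in L_IR, with all IR libraries above the rest and all Ab_IR libraries below the rest. The log2 fold change was 0.33 in IR against Ctrl (SE 0.0727, adjusted p 0.0127), -0.55 in Ab_IR against IR (adjusted p 7.08e-05), -0.27 in L_IR against IR (adjusted p 0.0024) and -0.29 in Ab_IR against L_IR (adjusted p 0.0094). The last of these calls was lost with the length trend taken out. Xrcc4, the partner of the end joining ligase, was listed at 3.02, 2.54 and 1.98 FPKM in Ctrl, 3.07, 3.29 and 2.9 in IR, 2.54, 2.08 and 1.97 in Ab_IR and 2.19, 2.04 and 2.09 in L_IR. It fell below IR in Ab_IR (-0.36, adjusted p 0.00513) and L_IR (-0.39, adjusted p 0.000557). Polq, the polymerase of the alternative end joining route, had the same directions at -0.47 (adjusted p 3.72e-05) and -0.17 (adjusted p 0.00554). Prkdc, the catalytic subunit DNA-PKcs, was listed at 5.05, 3.61 and 4.46 FPKM in Ctrl, 3.11, 3.19 and 3.41 in IR, 3.15, 3.54 and 3.23 in Ab_IR and 4.26, 4.05 and 4.44 in L_IR. IR against Ctrl lay just outside the threshold (-0.33, adjusted p 0.0527), L_IR was higher than IR (0.31, adjusted p 0.0013), and Ab_IR was lower than L_IR (-0.29, adjusted p 0.00719). The call of Ab_IR against L_IR was lost with the length trend taken out. Nhej1 passed in 0 comparisons, and Lig4, untested, was listed at 0.34, 0.51 and 0.64 FPKM in Ctrl and 0.86, 0.95 and 1.02 in IR.

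**Figure D3:**
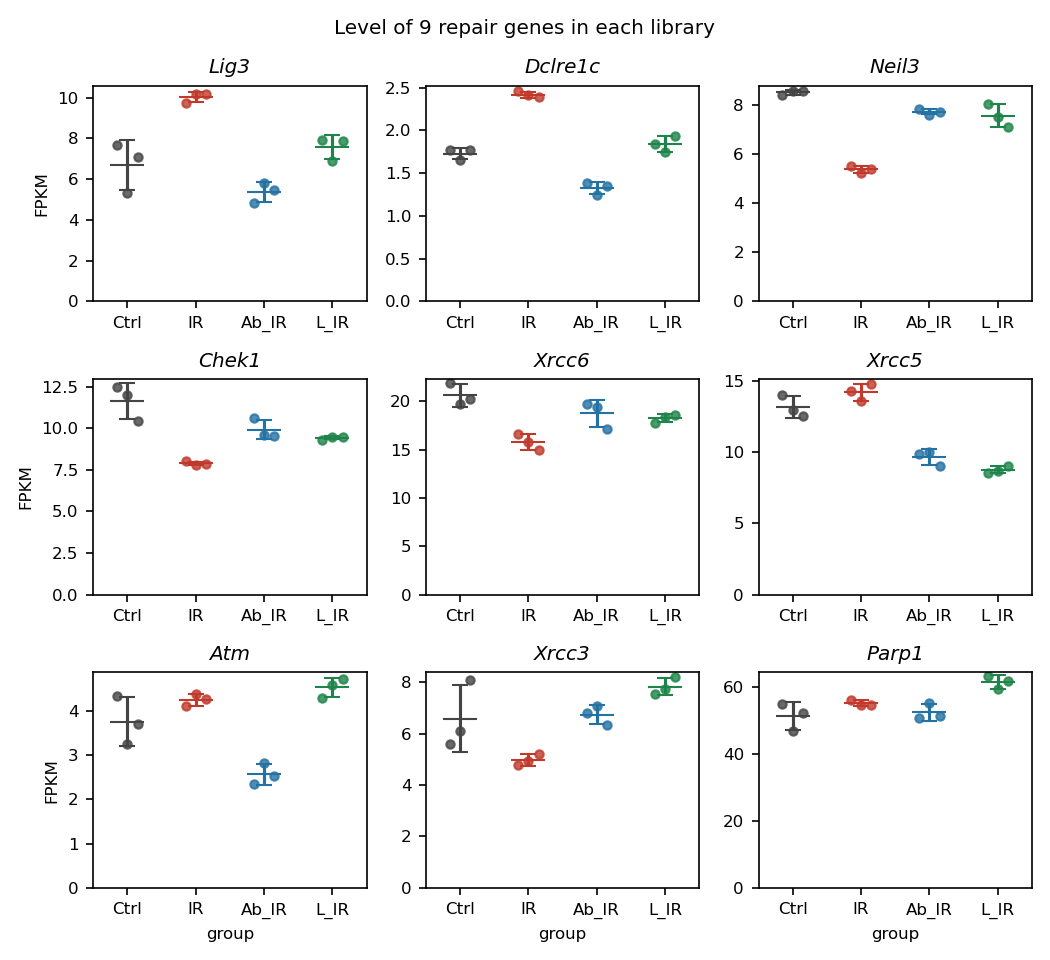
Points are FPKM of 9 repair genes in each of the 3 libraries of a group, with horizontal bars for the mean and error bars for the SD. IR stands above all other groups for Lig3 and Dclre1c and below them for Neil3 and Chek1, Xrcc5 is low in Ab_IR and L_IR, and Atm is low in Ab_IR only.

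Of the 5 Fanconi genes that reached 1 FPKM in both groups, Fanci fell in IR and 0 rose. Fancc, which reached 1 FPKM in Ctrl only, was listed at 1.18, 1.29 and 1.09 FPKM in Ctrl and 0.81, 0.82 and 0.78 in IR, and its call is not read as a result. Fancd2, whose product is ubiquitinated at crosslinks, was listed at 7.85, 6.73 and 7.75 FPKM in Ctrl, 6.52, 6.47 and 6.96 in IR, 6.69, 7.08 and 6.47 in Ab_IR and 8.1, 7.15 and 7.49 in L_IR. These groups overlapped except for L_IR above IR (0.16, adjusted p 0.0263) and Ab_IR below L_IR (-0.15, adjusted p 0.077), of which the first passed. Fancm, the helicase that anchors the Fanconi core complex to DNA, was listed at 4.05, 2.57 and 2.96 FPKM in Ctrl, 3.85, 3.8 and 3.85 in IR, 2.44, 2.66 and 2.26 in Ab_IR and 3.43, 3.7 and 3.78 in L_IR. Ab_IR lay below both other irradiated groups, at -0.49 against IR (adjusted p 0.000196) and -0.43 against L_IR (adjusted p 0.00218), while Ctrl spread over most of that range. Fanci, the partner of FANCD2, fell in IR by 0.28 on the log2 scale (adjusted p 0.0378) and exceeded its IR level in L_IR (0.17, adjusted p 0.0109).

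Base excision and single-strand break repair held both the largest rise and the largest fall of IR among tested genes on the log2(FPKM + 1) scale. As a ratio of mean FPKM, Pms2 (0.622) lay below Neil3 (0.632), and the untested Lig4 (1.9) above Lig3 (1.5). Lig3, the DNA ligase that works with XRCC1 and in mitochondria, was listed at 7.69, 5.31 and 7.08 FPKM in Ctrl, 9.75, 10.2 and 10.18 in IR, 4.82, 5.83 and 5.44 in Ab_IR and 7.92, 6.89 and 7.88 in L_IR. The 3 IR libraries lay above all 9 others. IR held 1.5 times the Ctrl mean, or 0.53 on the log2 scale (SE 0.125, adjusted p 0.0148), Ab_IR held 0.534 times the IR mean (-0.80, adjusted p 2.96e-05), and L_IR held 0.753 times (-0.37, adjusted p 0.000896). Neil3, a glycosylase that removes oxidized bases from single-stranded and crosslinked DNA, ran the other way. It was listed at 8.4, 8.56 and 8.55 FPKM in Ctrl, 5.5, 5.23 and 5.4 in IR, 7.83, 7.6 and 7.72 in Ab_IR and 8.03, 7.5 and 7.1 in L_IR. All IR libraries lay below all 9 others, at 0.632 times the Ctrl mean (-0.58, SE 0.0587, adjusted p 0.000604). Ab_IR was higher than IR by 0.45 (adjusted p 5.19e-05) and L_IR by 0.42 (adjusted p 0.000258).

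The glycosylases for uracil and for 8-oxoguanine shared that direction against IR. Ung was listed at 4.35, 4.6 and 5.38 FPKM in Ctrl, 3.85, 3.62 and 3.79 in IR, 5.46, 6.25 and 5.95 in Ab_IR and 5.41, 4.75 and 4.74 in L_IR. Ogg1 was listed at 1.91, 3.5 and 3.39 FPKM in Ctrl, 2.06, 2.03 and 2.12 in IR, 3.29, 3.56 and 3.35 in Ab_IR and 2.95, 3 and 2.71 in L_IR. For Ogg1, Ctrl replicate 1 lay with the IR libraries and the other Ctrl libraries with Ab_IR, and IR against Ctrl did not pass (-0.33, adjusted p 0.178). Ung fell in IR (-0.28, adjusted p 0.0428), a call that only FPKM as deposited gave among the 4 scalings. In Ab_IR against IR both were among the largest rises, at 0.53 for Ung (adjusted p 0.000116) and 0.52 for Ogg1 (adjusted p 7.44e-05). Parp1 was listed at 54.75, 46.7 and 52.15 FPKM in Ctrl, 56, 54.47 and 54.61 in IR, 50.52, 55.22 and 51.15 in Ab_IR and 63.29, 59.19 and 61.53 in L_IR. IR against Ctrl gave 0.10 (95% interval -0.07 to 0.28), and L_IR was higher than IR (0.15, adjusted p 0.00359) and than Ab_IR. Its relative Parp2 fell in IR (-0.25, adjusted p 0.0116) and was higher than IR in Ab_IR (0.26, adjusted p 0.000377) and L_IR (0.31, adjusted p 0.000119). Apex1 was lower than IR in both, and Xrcc1, the scaffold that LIG3 binds, passed in 0 of the 6 comparisons at 8.35 to 10.51 FPKM.

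In nucleotide excision repair 0 of 5 genes passed in IR against Ctrl, where limma gave 1 at an unadjusted p under 0.05, and 3 of 5 in Ab_IR and 4 of 5 in L_IR passed against IR, near the 68.7% and 66.8% of all genes. Xpc, the damage sensor of the whole genome branch, was listed at 11.22, 14 and 14.69 FPKM in Ctrl, 14.5, 15.42 and 15.24 in IR, 13.65, 13.27 and 13.07 in Ab_IR and 11.68, 12.6 and 11.59 in L_IR. Both other irradiated groups lay below IR, with -0.16 for Ab_IR against IR (adjusted p 0.00809) and -0.31 for L_IR against IR (adjusted p 0.000574). Ercc1, which pairs with ERCC4 as the nuclease 5′ of a lesion, was listed at 1.85, 1.71 and 1.67 FPKM in Ctrl, 1.53, 1.34 and 1.19 in IR, 1.7, 2.2 and 2 in Ab_IR and 1.61, 1.74 and 2.07 in L_IR. Both members of that pair were higher than IR in the other irradiated groups, Ercc1 by 0.33 and 0.25 and Ercc4 by 0.16 and 0.28 in Ab_IR and L_IR. Of these 4 calls, 0 held under all 4 scalings. Ercc2, a helicase of the transcription factor TFIIH, was higher than IR in L_IR only among these comparisons (0.15, adjusted p 0.0123), and Xpa, from 1.68 to 3.55 FPKM with wide spread within Ctrl and IR, passed in none of the 6.

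Of 4 genes of mismatch repair, nucleases and helicases, Pms2 and the helicase gene Blm fell in IR and 0 rose. Msh6 was listed at 27.16, 30.42 and 30.83 FPKM in Ctrl, 24.95, 26.66 and 26.21 in IR, 31.33, 28.83 and 28.99 in Ab_IR and 27.02, 27.82 and 28.53 in L_IR, a difference of -0.18 for IR against Ctrl that did not pass (adjusted p 0.09). Pms2, of the endonuclease that nicks the new strand, was listed at 5.7, 3.9 and 3.98 FPKM in Ctrl, 2.82, 2.77 and 2.86 in IR, 3.58, 3.66 and 3.42 in Ab_IR and 3.57, 3.53 and 3.71 in L_IR. Ctrl replicate 1 stood far above the other Ctrl libraries, yet all IR libraries lay below all 9 others. Pms2 fell in IR (-0.52, adjusted p 0.0207) and exceeded its IR level in Ab_IR (0.25, adjusted p 0.00208) and L_IR (0.27, adjusted p 0.00103). Blm fell in IR (-0.36, adjusted p 0.0244). On the log2(FPKM + 1) scale it was the gene with the lowest value against Ctrl in Ab_IR (-0.42, adjusted p 0.107). As a ratio of mean FPKM, Atm lay lower there. Exo1, the resection exonuclease, passed only in Ab_IR against IR (-0.13, adjusted p 0.049).

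Set side by side, the medians of the members differed in sign between pathways. Homologous recombination genes had a median log2 fold change of -0.30 in IR against Ctrl, 0.12 in Ab_IR against IR and 0.17 in L_IR against IR, whereas the 7 end joining genes tested had 0.10, -0.36 and -0.27. The medians of 7 further end joining genes outside the 49 did not share the direction of the members. They were -0.03, 0.23 and 0.20, with 4 higher and 3 lower in Ab_IR and 4 higher and 2 lower in L_IR against IR. Of these 7, Dntt passed the filter on low values through the group other than IR alone, so its direction was fixed by the filter. These medians and counts include Dntt, and values without it are not given here. For 16 further recombination genes tested the medians were -0.11, 0.14 and 0.10. The medians of the other groups were -0.26, -0.06 and 0.12 for damage signalling, -0.06 (0.02 without Fancc), -0.17 and 0.04 for Fanconi, -0.13, 0.17 and 0.23 for base excision and single-strand break repair, -0.01, 0.16 and 0.15 for nucleotide excision repair, and -0.27, 0.07 and 0.11 for mismatch repair, nucleases and helicases. Further genes outside the 49 differed in sign from the members in 3 of these values, with 0.18 for 12 Fanconi genes and 0.06 for 14 damage signalling genes in Ab_IR against IR, and 0.04 for 15 base excision genes in IR against Ctrl. Without Fancc, the Fanconi members also differed in sign in IR against Ctrl, at 0.02 beside -0.15 for the 12 further genes. Medians over all genes tested were -0.05, 0.06 and 0.07. These are descriptions of small lists that overlap in function, and the difference between pathways was not tested. The values hold for FPKM as deposited. In Ab_IR against IR the median of all members went from 0.04 to -0.06 with quantile normalization and to -0.09 without immunoglobulin genes. The calls of Bard1, Palb2 and Xrcc2 there each held under 2 of 4 scalings, and that of Xrcc3 under all 4. Pathway signs under other scalings were not tested. Averaged over its genes, the recombination level per library, on the log2(FPKM + 1) scale, was 2.49 to 2.67 in Ctrl, 2.32 to 2.35 in IR, 2.42 to 2.52 in Ab_IR and 2.52 to 2.53 in L_IR. The level of the end joining members was 2.41 to 2.55 in Ctrl, 2.52 to 2.55 in IR, 2.23 to 2.32 in Ab_IR and 2.33 to 2.40 in L_IR. Over these members, on FPKM as deposited, IR held the lowest recombination level, and Ab_IR and L_IR the lowest end joining level. The medians of further end joining genes, with Dntt among them, did not share that direction.

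**Figure D4:**
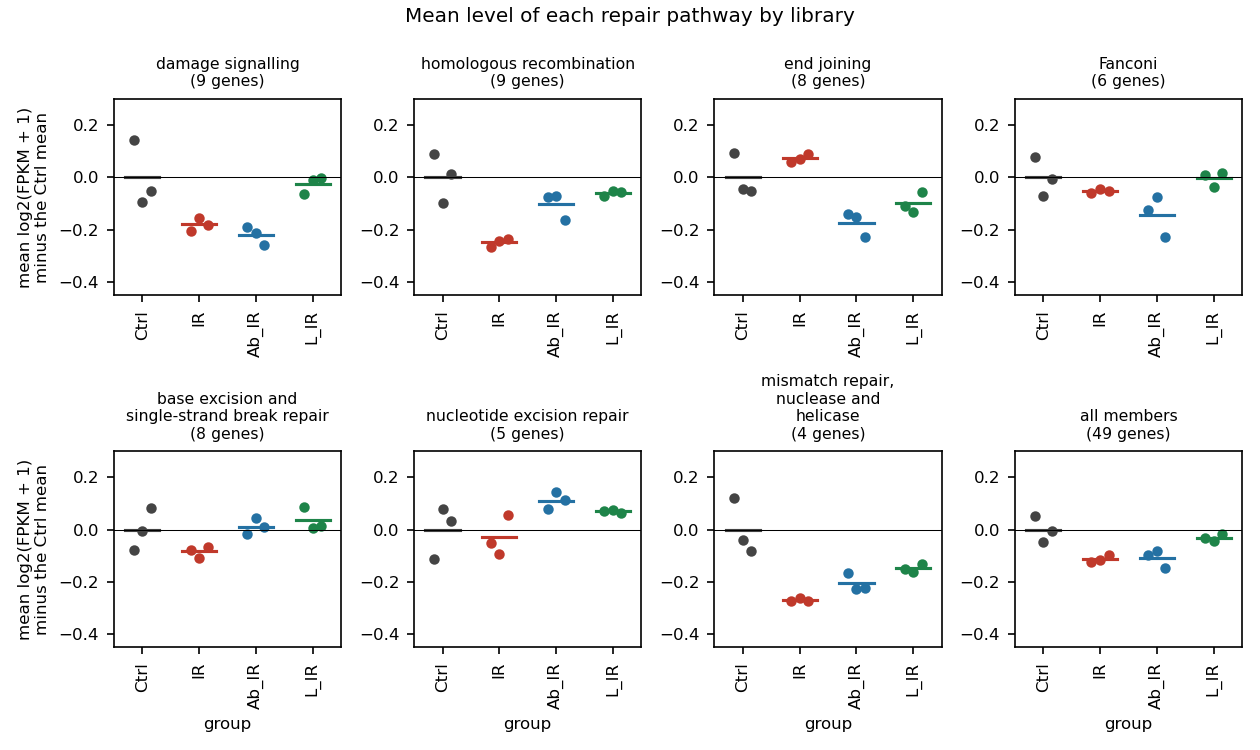
Each panel gives, for 1 pathway and for all 49 genes, the mean log2(FPKM + 1) of its genes in each library minus the Ctrl mean, with a horizontal line for each group mean. Recombination genes are lowest in the 3 IR libraries, and the end joining members are lower in the Ab_IR and L_IR libraries than in IR.

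Differences of Ab_IR from the other groups moved with the length of the gene, most of all among repair genes against L_IR. The 15 repair genes lower in Ab_IR included the long transcripts of Atm, Atr, Brca2, Prkdc, Fancm, Mdc1 and Trp53bp1. They also included Xrcc3 (2750 bp), Parp1 (5293 bp) and Rad50 (5375 bp), which lie under the median length of the repair genes. Over 48 repair genes, Spearman's rho between the log2 fold change of Ab_IR against L_IR and merged exon length was -0.70, and over 11925 genes it was -0.32. These points are genes of the same 6 libraries and carry no p. The 12 longest repair genes (8422 bp or more) had a median of -0.28 and the 12 shortest (4170 bp or less) a median of 0.06. The rho of the repair genes was -0.34 for Ab_IR against IR, 0.09 for L_IR against IR and 0.00 for IR against Ctrl. It was -0.54 for Ab_IR against Ctrl, where over 11859 genes it was -0.44, and 0.25 for L_IR against Ctrl. Repair genes were longer than others, with a median of 5706 bp against 3851 bp. With the trend of fold change against length taken out over all genes, 2 repair genes were higher and 8 lower in Ab_IR than in L_IR, all of them called before. Among the calls lost were those of Brca2 (-0.13, adjusted p 0.0519), Prkdc (-0.09, adjusted p 0.267), Dclre1c (-0.16, adjusted p 0.091) and Atr, which turned from -0.28 to 0.03 (adjusted p 0.662). In Ab_IR against IR, 26 of 29 calls held, and those of Trp53bp1, Fanca and Exo1 did not, while Atr became higher (0.51, adjusted p 0.000115), as did Brca2 (0.29, adjusted p 0.0016) and Prkdc (0.26, adjusted p 0.00541). RNA quality was not measured in these files, and its part in the length trend was not tested.

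**Figure D5:**
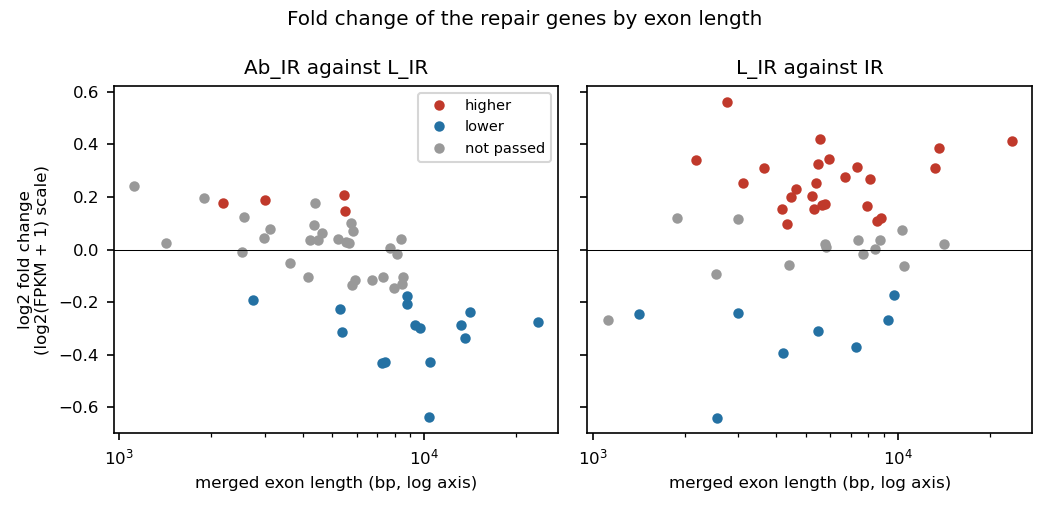
Points are repair genes, with merged exon length in bp on a log axis and the log2 fold change on the log2(FPKM + 1) scale, coloured by call. In Ab_IR against L_IR long genes lie low (rho of -0.70), whereas L_IR against IR shows no such slope (rho of 0.09).

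A further 106 repair genes were followed for comparison, of which 101 were in the tables and 97 could be tested. In IR 8 rose and 28 fell, beside 17.5% and 25.5% of all genes. Against IR 38 rose and 25 fell in Ab_IR, beside 39.4% and 29.4%, and 39 rose and 13 fell in L_IR, beside 40.8% and 26%, so that the shares that rose lay near those of all genes. Over the 96 that reached 1 FPKM in both groups, 8 rose and 27 fell in IR, beside 17.4% and 23.4% of such genes overall. Against IR, 37 of these rose and 25 fell in Ab_IR (37.7% and 29.3%), and 38 rose and 13 fell in L_IR (38.9% and 26.1%). Against Ctrl limma called 0 of 97 in Ab_IR, beside 2.1% of all genes, with 8 at an unadjusted p under 0.05. Of 98 tested in L_IR against Ctrl, Tdg and Parp3 were higher (0.43 and 0.42) and Dntt and Sfr1 lower (-1.43 and -0.32). Over all genes 4.76% were higher and 4.08% lower there. Past the 2-fold threshold was 1 gene, Dntt, which encodes the terminal transferase that adds bases at V(D)J junctions of lymphoid cells. It stayed under 1 FPKM in IR, so in the comparisons with IR it passed the filter on low values through the other group alone. It was listed at 14.34, 13.6 and 12.44 FPKM in Ctrl, 0.35, 0.3 and 0.26 in IR, 13.01, 12.48 and 12.33 in Ab_IR and 4.24, 4.2 and 4.61 in L_IR. IR against Ctrl gave -3.47, Ab_IR against IR 3.38 and L_IR against IR 2.04. These directions were fixed by the filter, and the calls are not read as a result. Other large changes in IR were falls of Aplf, an end joining factor (-0.75, adjusted p 0.000483), and of Fancl, the Fanconi ubiquitin ligase (-0.73, adjusted p 0.00296), and rises of Faap24, a partner of FANCM (0.67, adjusted p 0.000728), and Tdg, a thymine glycosylase (0.67, adjusted p 0.00219). Against IR, Fancl was higher in Ab_IR (0.87) and Faap100, a Fanconi core subunit, in L_IR (0.72), and Mad2l2, which restrains resection, was higher in both (0.71 and 0.57). Among the largest falls, Faap24 changed by -0.67 and -0.58 in Ab_IR and L_IR, and Rad23b by -0.59 and -0.31.

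Genes of DNA replication and mitosis moved in the same libraries, and their counts and those of p53 targets stand beside 17.5% higher and 25.5% lower over all genes in IR, 39.4% and 29.4% in Ab_IR against IR, and 40.8% and 26% in L_IR against IR. Of 20 S phase genes, 1 rose and 10 fell in IR, while 12 rose and 2 fell in Ab_IR and 13 rose and 2 fell in L_IR against IR. Their summed level was 1410 to 1531 FPKM in Ctrl, 1314 to 1319 in IR, 1414 to 1495 in Ab_IR and 1347 to 1394 in L_IR. Of 20 mitosis genes, 5 rose and 1 fell in IR, against 3 and 12 in Ab_IR and 0 and 13 in L_IR, with sums of 899 to 990 FPKM in Ctrl and 1025 to 1045 in IR, 877 to 917 in Ab_IR and 865 to 890 in L_IR. Of 10 p53 targets that reached 1 FPKM in both groups, 5 rose and 1 fell in IR, and against IR, of 11 tested, 5 rose and 4 fell in Ab_IR and 6 rose and 2 fell in L_IR. They did not all move one way. Ccng1, an atypical cyclin, rose in IR (0.75, adjusted p 0.000408), the kinase gene Plk2 fell (-0.77, adjusted p 0.00935), and Cdkn1a, which encodes the cell cycle inhibitor p21, gave -0.12 in IR (adjusted p 0.202) and was higher than IR in Ab_IR (0.54, adjusted p 1.73e-05) and L_IR (0.78, adjusted p 7.16e-06). These 3 were chosen after their values were seen. The share of cycling cells is not measured in these files, and its part in the repair genes was not tested.

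Markers of other marrow cells moved with the groups as well, and in a bulk library fewer cells of a type and less RNA per cell cannot be told apart. Summed over 11 genes, erythroid transcripts stood at 3023 to 3453 FPKM in Ctrl, 502 to 514 in IR, 2878 to 3098 in Ab_IR and 1549 to 1594 in L_IR, and 11 of 11 fell in IR. Megakaryocyte and platelet transcripts, of which 6 of 6 that reached 1 FPKM in both groups fell in IR, summed to 68.5 to 82.7 FPKM in Ctrl, 16.3 to 19.3 in IR, 171 to 179 in Ab_IR and 108 to 114 in L_IR. Neutrophil and monocyte transcripts reached 10843 to 12629 FPKM in Ctrl and 16129 to 16401 in IR, where 5 of 12 rose and 1 fell, and were 11831 to 12409 in Ab_IR and 8769 to 8982 in L_IR. These 3 lists parted IR from the other groups, as the repair genes Lig3, Dclre1c, Neil3 and Chek1 did. Plasma and B cell transcripts summed to 657 to 767 FPKM in Ctrl, 1013 to 1036 in IR, 1119 to 1208 in Ab_IR and 1502 to 1527 in L_IR, most of it Jchain, the joining chain of secreted antibodies, at 513 to 1287 FPKM. Of 8 genes of this list that reached 1 FPKM in both groups, 4 rose and 4 fell in Ab_IR and 6 rose and 1 fell in L_IR against IR. Xbp1, a factor of plasma cells, fell in Ab_IR (-1.06, adjusted p 9.31e-07). It stood at 199 to 201 FPKM in IR and 107 to 108 in L_IR. Jchain and Sdc1, of the same list, went the other way, with all Ab_IR and L_IR libraries above all IR libraries. Macrophage transcripts summed to 90.9 to 99.2, 72.6 to 84.0, 107 to 117 and 100 to 119 FPKM, and T and NK cell transcripts to 178 to 284, 226 to 231, 294 to 304 and 261 to 270 FPKM, in the order Ctrl, IR, Ab_IR and L_IR. Nkg7, of NK cells and cytotoxic T cells, at 147 to 271 FPKM made up most of the latter sum and was higher in Ab_IR than in L_IR, whereas 8 of 11 genes tested of this list were lower in Ab_IR than in L_IR and 1 was higher, with a median of -0.50. Trac, a T cell receptor gene, was highest in L_IR, at 6.04, 4.34 and 4.68 FPKM in Ctrl, 2.6, 2.05 and 2.72 in IR, 6.78, 7.11 and 5.9 in Ab_IR and 10.42, 10.74 and 9.69 in L_IR. Against IR, 8 of 9 genes of the list that reached 1 FPKM in both groups rose in Ab_IR, and 8 of 9 in L_IR. The part of the cell mixture in the repair genes was not tested.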

How the data were processed

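RNA was sequenced from 12 libraries of sorted bone marrow cells. FPKM per gene name were deposited by the authors, 1 table per library. The unit is not named in the tables and was taken from the scale of the values, which could not be brought back to whole reads. The submitters' processing notes name fastp, HISAT2, StringTie and GRCm38 (mm10), whereas the study's methods name RSEM for quantification. The annotation is not given in the sources used here, and the kit was stranded. StringTie and RSEM share out reads between overlapping transcripts, which can move the values of low genes.

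The authors' count test could not be run on FPKM. Instead, limma 3.58.1 (R 4.3.3) was fitted with a trend to log2(FPKM + 1) of the 6 libraries compared, over every gene that reached 1 FPKM in 3 or more of them, and p-values were adjusted by Benjamini-Hochberg over all those genes. Genes were called at an adjusted p under 0.05. An absolute log2 fold change above 1 was the 2-fold threshold. The script was tested on simulated data. Exon lengths came from GENCODE M21 (GRCm38) and promoters from RefSeq.

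Values in every library are given for 12 genes chosen for their role and for the 5 largest rises and 5 largest falls, without overlap of groups, of IR against Ctrl, Ab_IR against IR and L_IR against IR, 24 genes in all. Other repair genes are named by the 3 largest rises and falls of these comparisons. Some of these are not reported here. Other genes, named to complete a count or as markers of other cells, were chosen after their values were seen. The members, gene lists and tests were chosen with earlier results of these data known. Alternatives were other pseudocounts, filters and scalings, limma without trend, 1 fit of all libraries, a replicate block, a correction for length, and leaving out each library.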

Additional observations from a re-analysis of the deposited data

How the results depend on the processing

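For IR against Ctrl, 17 genes became 9 without a filter on low values, 7 without immunoglobulin genes, 27 with all 12 libraries in 1 fit, and 5 to 25 when 1 library was left out. For Ab_IR against L_IR, 19 became 12 without a filter, 12 in 1 fit of all libraries, 10 with the length trend taken out and 13 to 17 with 1 library left out. For Ab_IR against Ctrl, 0 became 1 with scaling by the median log2 ratio, 11 in 1 fit, 1 with the length trend taken out, and 0 to 2 with 1 library left out. For L_IR against Ctrl, 1 became 7 in 1 fit and 1 to 5 with 1 library left out. Total counts of Ab_IR and L_IR against IR stayed within 1.5 times under every alternative run, but not those by direction: higher calls went from 16 to 7 without immunoglobulin genes and to 10 with quantile normalization for Ab_IR, and from 25 to 14 with quantile normalization for L_IR, where lower calls went from 8 to 13. No gene passed the 2-fold threshold under any of them. Causes were not tested, except that leaving out a library leaves fewer samples.

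Libraries share replicate numbers, but the numbers did not pair them: deviations of same-numbered libraries correlated at -0.27 to 0.21, and those of other pairs at -0.26 to 0.28. With the replicate block, 9 genes were called for IR against Ctrl and 12 for Ab_IR against L_IR. With the block and the length trend taken out, which was added after seeing the data, they were 9 and 6.

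Of the called members, Trp53bp1 in Ab_IR against IR and Atr in Ab_IR against L_IR changed sign, both with the length trend taken out, to 0.0350 and 0.0323, past no threshold. The other changes of sign, among the genes with values in every library, were in genes without a call. In Ab_IR against IR, quantile normalization gave -0.0419 for Atr, -0.0731 for Brca1, -0.0830 for Brca2, -0.127 for Prkdc and -0.0706 for Fancd2. Scaling by the median log2 ratio gave -0.0213 for Brca1, -0.00165 for Prkdc and -0.00690 for Fancd2. Without immunoglobulin genes the values were -0.132 for Brca1, -0.0746 for Brca2, -0.0938 for Prkdc and -0.115 for Fancd2. Leaving out 1 library gave -0.0234 to 0.0479 for Brca1, -0.0154 to 0.0524 for Prkdc and -0.0128 to 0.0469 for Fancd2, below 0 for Brca1 without IR replicate 3 or Ab_IR replicate 1 or 2, and for the others without Ab_IR replicate 2. In L_IR against IR, quantile normalization gave -0.0681 for Atm. Depth is unknown, so genes near 1 FPKM, such as Lig4 and Fancc, are the least certain.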
